A study of Mus musculus with 93 samples.

Results

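The effect of a single oral dose of tridocosahexaenoin, a triglyceride built only of docosahexaenoic acid (DHA, C22:6), was examined in the livers of mice that lack the nuclear receptor PPARα. The 10 arrays were chosen by their titles, as the C22:6 group (n = 5) and the control group (n = 5) of PPARα −/− mice in the first run of the experiment, out of 93 arrays in all. All were male mice on the 129S4/SvJae background, fasted for 4 hours, gavaged with 400 µl and killed 6 hours later. Control mice received an aqueous solution of carboxymethyl cellulose, so they got neither DHA nor any other fat. The labels give an age of 8 to 24 weeks for the C22:6 group, against 12 to 20 weeks for the control group, so the treatment and the age range cannot be told apart. The same holds for the WT groups, with 8 to 24 weeks for C22:6, against 12 to 20 weeks for control. WT mice of the first run (129S1/SvImJ; C22:6, n = 5, and control, n = 3) and PPARα −/− mice given triglycerides of eicosapentaenoic acid (EPA, C20:5, n = 4) or oleic acid (C18:1, n = 5) were used for comparison. The C20:5 and C18:1 mice have the same labelled age range as the C22:6 mice.

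PPARα is activated by fatty acids and switches on genes for fatty acid oxidation, among them the acyl-CoA thioesterases, the carnitine shuttle and the peroxisomal enzymes. Mice without it are used to find which responses to dietary fat need this receptor. Unsaturated fatty acids also act on other regulators in the liver. The best known is SREBP-1, encoded by Srebf1, a transcription factor that drives fatty acid synthesis and whose mRNA and processing are lowered by polyunsaturated fatty acids. DHA, with its many double bonds, is in addition prone to oxidation.

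The 10 arrays did not spread evenly. The first principal component of the log2 signals held 38.6% of the variance and placed C22:6 replicate 2 at 63.99, far from the other C22:6 mice (−5.38 to 27.99). The other 4 control mice lay between −30.66 and −24.69, and control replicate 3 lay at 2.10, among the C22:6 mice. C22:6 replicate 5 stood apart on the second component (19.4% of the variance), at 55.36. The median SD between mice over all probesets was 0.29 on the log2 scale in the C22:6 group, against 0.21 in the control group. The plot of the principal components shows these positions. The median intensity per array lay between 137.9 and 143.3, but the deposited values were already normalized between arrays. Whether total signal set the arrays apart can therefore not be seen from them.

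**Figure D1:**
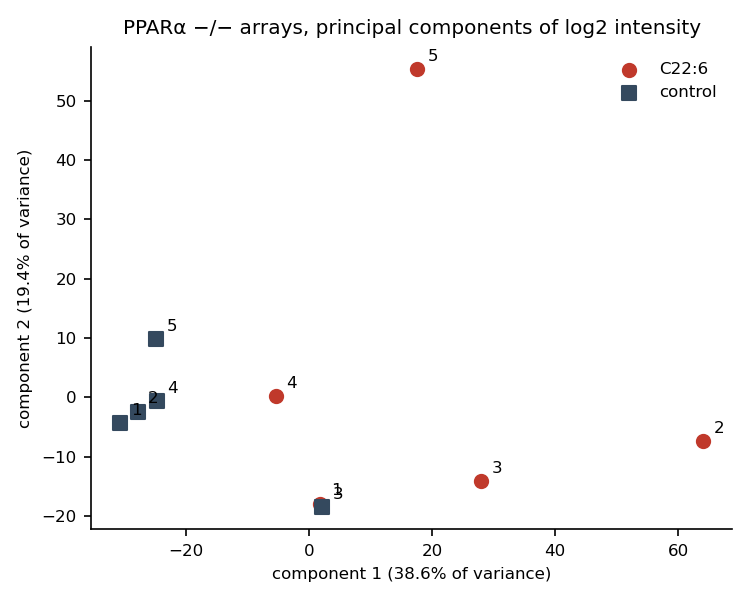
Each point is the array of 1 PPARα −/− mouse, placed by its first (horizontal axis) and second (vertical axis) principal component of log2 intensity, with its replicate number. C22:6 replicate 2 lies far to the right, at 63.99, C22:6 replicate 5 lies high on the vertical axis, at 55.36, and control replicate 3 lies at 2.10 on the horizontal axis, among the C22:6 mice.

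Ppara, the disrupted gene, was listed with signal in the PPARα −/− livers. Its brightest probeset had a log2 signal of 10.29, 9.91, 10.12, 9.94 and 9.0 in the C22:6 mice, against 10.58, 10.03, 10.30, 10.02 and 9.64 in the control mice. In WT livers it lay between 10.94 and 11.34 with C22:6, and between 10.34 and 10.83 in control mice. A less bright probeset lay at 7.27 to 9.08 with C22:6 and 7.84 to 9.23 in control PPARα −/− mice. In WT mice it lay at 9.99 to 10.62 and 9.62 to 9.88. Another lay at 5.94 to 7.41 and 6.59 to 7.14 in PPARα −/− mice, against 8.84 to 9.19 and 8.1 to 8.89 in WT mice. Whether these probes lie in the disrupted part of the gene is not given in the sources used here, so the signal is no check of the disruption. Of 10 hepatocyte markers none changed, and their mean log2 signal lay between 12.42 and 12.85 in the C22:6 mice, against 12.71 to 12.76 in the control mice. The lowest of these was C22:6 replicate 5.

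Of 11412 probesets tested, 637 (5.58%) were higher and 910 (7.97%) were lower with C22:6 at an adjusted p under 0.05 (limma's moderated test on 83 arrays, Benjamini-Hochberg adjusted). "Rose" and "fell" are used below for this threshold. Counted by gene, with the brightest probeset standing for each of 6661 genes, 403 rose (6.05%) and 606 fell (9.1%), and in 79 (1.19%) and 140 (2.1%) of all genes the groups did not overlap as well. Counts within the gene lists below are to be read against these shares. At the threshold of the study, an unadjusted p under 0.01, 1780 probesets (15.6%) passed. These calls rest on the estimate of spread that all 18 groups of mice share. With the 10 arrays alone, limma's test called 0 probesets, the smallest adjusted p being 0.17, while 587 probesets reached an unadjusted p under 0.01 and 1996 one under 0.05.

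They also rest on single mice. Without C22:6 replicate 2 the number of called probesets fell to 390, without control replicate 1 to 975, without control replicate 2 to 939, and without C22:6 replicate 2 and control replicate 1 together to 36. By gene, 129 rose (1.94%) and 131 fell (1.97%) without C22:6 replicate 2. All 1547 called probesets (13.6%) kept their sign in the 3 fits that left out C22:6 replicate 2, control replicate 1 or both. As they had been called for changes large against their error in these same arrays, this could hardly come out otherwise. The effect of leaving out each mouse is shown in the plot of calls by arrays in the fit. For many single genes below, the adjusted p without C22:6 replicate 2 is given as well.

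**Figure D2:**
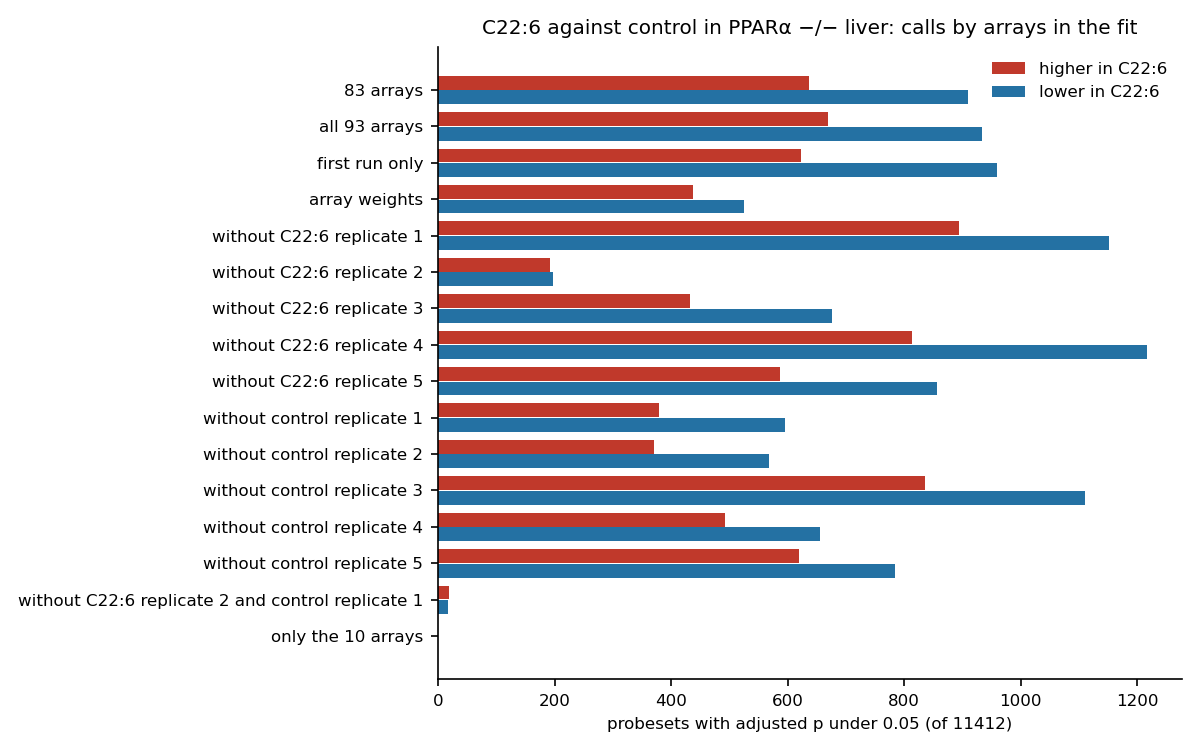
Bars give the number of probesets (of 11412) called at an adjusted p under 0.05, higher (red) or lower (blue) with C22:6 than in control PPARα −/− livers, for each choice of arrays in the fit. The counts are lowest with only the 10 arrays (0) and without C22:6 replicate 2 and control replicate 1 (36), and they are 390 without C22:6 replicate 2.

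Srebf1 was among the genes that fell most. Its log2 signal was 6.36, 5.13, 6.27, 6.22 and 4.63 in the C22:6 mice, against 8.18, 8.42, 7.16, 8.15 and 8.37 in the control mice. All 5 C22:6 mice were below the lowest control mouse, which was replicate 3. The log2 change was −2.33 ± 0.37 (SE), or 5.04-fold lower, with an adjusted p of 9.1e-05, and Srebf1 was called in all 10 fits that left out 1 mouse. In the fit of the 10 arrays alone its unadjusted limma p was 8.3e-05.

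The enzymes of fatty acid synthesis were lower as well. Of 16 measured genes of lipogenesis 10 fell and 0 rose, with a median log2 change of −1.12 over the list, against −0.03 over all genes. With C18:1 against the same control mice 4 were lower and 0 higher, with a median of −0.95. With C20:5 0 were called, with a median of −0.21. The fall of this list was therefore not particular to C22:6. Acss2, which makes acetyl-CoA from acetate, had a log2 signal of 9.88, 7.15, 8.07, 9.0 and 9.27 in the C22:6 mice, against 10.26, 10.88, 9.07, 10.37 and 11.38 in the control mice. The groups overlapped, with control replicate 3 lowest among the control mice (log2 change −1.72 ± 0.39, adjusted p = 0.0029). Pklr, the liver pyruvate kinase, changed by −1.71 ± 0.42 (adjusted p = 0.0045), and here the groups only just overlapped, the highest C22:6 mouse being at 8.47 and the lowest control mouse at 8.46. Mid1ip1, a protein that activates acetyl-CoA carboxylase, did not overlap (−1.66 ± 0.38, adjusted p = 0.003).

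Fatty acid synthase itself, Fasn, had a log2 signal of 7.76, 6.19, 6.87, 7.52 and 8.23 in the C22:6 mice, against 8.33, 9.02, 7.83, 8.22 and 9.98 in the control mice. C22:6 replicate 2 was the lowest of the 10 (log2 change −1.36 ± 0.35, adjusted p = 0.0072). Acetyl-CoA carboxylase, Acaca, the first committed enzyme of the pathway, fell by 1.03 without overlap (adjusted p = 0.0072). The elongase Elovl6 fell by 1.35, the citrate-cleaving enzyme Acly by 0.93 and the mitochondrial citrate carrier Slc25a1 by 0.39. The stearoyl-CoA desaturase Scd1 did not pass the test, at a log2 change of −0.16 with a 95% interval of −0.41 to 0.09, and neither did Thrsp (−1.15, adjusted p = 0.064), Me1 (−0.75) or Mlxipl (−0.36), which encodes the carbohydrate-responsive factor ChREBP. Without C22:6 replicate 2 only 3 of the 10 were called, namely Srebf1 (adjusted p = 0.0013), Mid1ip1 (0.024) and Acss2 (0.042), and the median of the list was −0.88. Of 6 desaturases and elongases of polyunsaturated fatty acids 0 were called, with Fads1 at −0.20 and Fads2 between 9.33 and 10.33 in the C22:6 mice, against 9.33 to 10.14 in the control mice.

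SREBP proteins act together with the CCAAT-binding factor NF-Y at many of their targets, and the promoters of Fasn and Insig1, a pair of well-known SREBP targets, are shown for this reason. Sequences are from RefSeq (GRCm38.p6), read 5′ to 3′ on the strand of the gene, and capitals mark CCAAT or its reverse complement, and CACGTG in Insig1. The Fasn stretch ends at the base before the annotated start (chr11:120824548-120824672, minus strand), and the Insig1 stretch runs from base −230 to −76 (chr5:28071182-28071336, plus strand).
Fasn: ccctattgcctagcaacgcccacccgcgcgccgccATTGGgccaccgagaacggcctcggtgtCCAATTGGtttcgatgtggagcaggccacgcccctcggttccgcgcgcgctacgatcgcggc
Insig1: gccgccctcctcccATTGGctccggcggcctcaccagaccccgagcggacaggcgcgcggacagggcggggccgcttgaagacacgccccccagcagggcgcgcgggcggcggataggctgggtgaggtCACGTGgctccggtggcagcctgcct
On either strand, CCAAT was found in the 250 bases before the start in 5 of 10 called lipogenic genes, 7 of 15 measured ones that had a promoter entry and 34.5% of 27025 promoters (1 per gene). For measured genes of cholesterol synthesis and uptake it was found in 14 of 16, and in 2 of the 4 called ones. The sterol response element-like form TCACNCCAC was found in 0 of 10 called lipogenic genes, 0 of 4 called cholesterol genes and 1.04% of all promoters. A match is a description of the letters and not of a bound site, and the CCAATTGG of Fasn is read as 2 overlapping matches.

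Cholesterol synthesis showed smaller shifts. Of 20 measured genes 4 fell and 0 rose, with a median of −0.64. The 4 were Dhcr7, the last enzyme of the pathway (−0.94 ± 0.33, adjusted p = 0.046), Insig1, which holds SREBPs in the endoplasmic reticulum (−0.92 ± 0.30, adjusted p = 0.032), the sterol desaturase Sc5d (−0.85, adjusted p = 0.02) and Scap, the escort of SREBPs (−0.48 ± 0.11, adjusted p = 0.0036). Scap had a log2 signal of 8.47, 8.33, 8.48, 8.61 and 8.67 in the C22:6 mice, against 9.19, 9.13, 8.68, 9.09 and 8.86 in the control mice, with no overlap. It was the only one of the 4 called without C22:6 replicate 2 (adjusted p = 0.033). The other 16 were not called, among them Sqle (−0.11), Hmgcs1 (−0.39) and Cyp51 (−0.49).

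Cyp7a1, the rate-limiting enzyme of bile acid synthesis, was at 9.52, 6.04, 9.35, 9.67 and 9.46 in the C22:6 mice, against 10.67, 10.62, 11.06, 10.42 and 10.64 in the control mice. All C22:6 mice were below all control mice, and replicate 2 was far below its group. The log2 change was −1.88 ± 0.64 (adjusted p = 0.04) with it and −1.18 (adjusted p = 0.3) without it, and the call was lost in 6 of the 10 fits that left out 1 mouse. Of 21 genes of bile acid synthesis and transport 8 fell and 1 rose, but without C22:6 replicate 2 only Slc27a5, the bile acid-CoA ligase, was still called (−0.28, adjusted p = 0.0076 with all mice). The sterol 12-hydroxylase Cyp8b1 (−0.71), the reductase Akr1d1 (−0.85) and the bile acid receptor FXR, Nr1h4 (−0.39), were among the 8, and the gene that rose was Abcb4, the phospholipid export pump (0.49). Of 11 targets of LXR 4 fell, namely Srebf1, Cyp7a1, Lpcat3 and Abcg8, a subunit of the sterol exporter (−0.65, adjusted p = 0.05 after rounding, and 0.14 without C22:6 replicate 2). Lpcat3, which puts polyunsaturated chains into phospholipids, fell without overlap, at 8.44, 8.35, 8.52, 8.70 and 8.18 in the C22:6 mice, against 9.02, 9.19, 9.16, 9.12 and 8.77 in the control mice (−0.62 ± 0.14, adjusted p = 0.0029). The other 7 were not called, among them Abca1 (0.34) and Abcg5 (−0.20).

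Of 26 genes of glycolysis, gluconeogenesis and glycogen 11 fell, 1 rose and 14 were not called, with a median of −0.26. Of these falls 2 were still called without C22:6 replicate 2. Slc2a2, the glucose transporter of hepatocytes, had a log2 signal of 10.65, 8.45, 9.80, 10.76 and 10.37 in the C22:6 mice, against 11.08, 11.20, 11.22, 11.15 and 11.33 in the control mice. The control mice lay close together, and C22:6 replicate 2 was the lowest of all (−1.19 ± 0.24, adjusted p = 0.0013, and 0.033 without it). The pyruvate dehydrogenase kinases Pdk1 and Pdk2, which restrain glucose oxidation, fell by 0.95 and 0.61, the fructokinase Khk by 0.70, the liver phosphofructokinase Pfkl by 0.57 and the glycogen phosphorylase Pygl by 0.56. Ldha, the lactate dehydrogenase subunit, was the gene that rose, without overlap (0.52 ± 0.12, adjusted p = 0.0042). Without C22:6 replicate 2, Slc2a2, Pdk2 and Ldha were the genes of this list still called, with adjusted p values of 0.033, 0.023 and 0.046. Slc2a5, the fructose transporter, which is not in the list, fell without overlap (−1.32 ± 0.28, adjusted p = 0.0017, and 0.033 without C22:6 replicate 2).

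**Figure D3:**
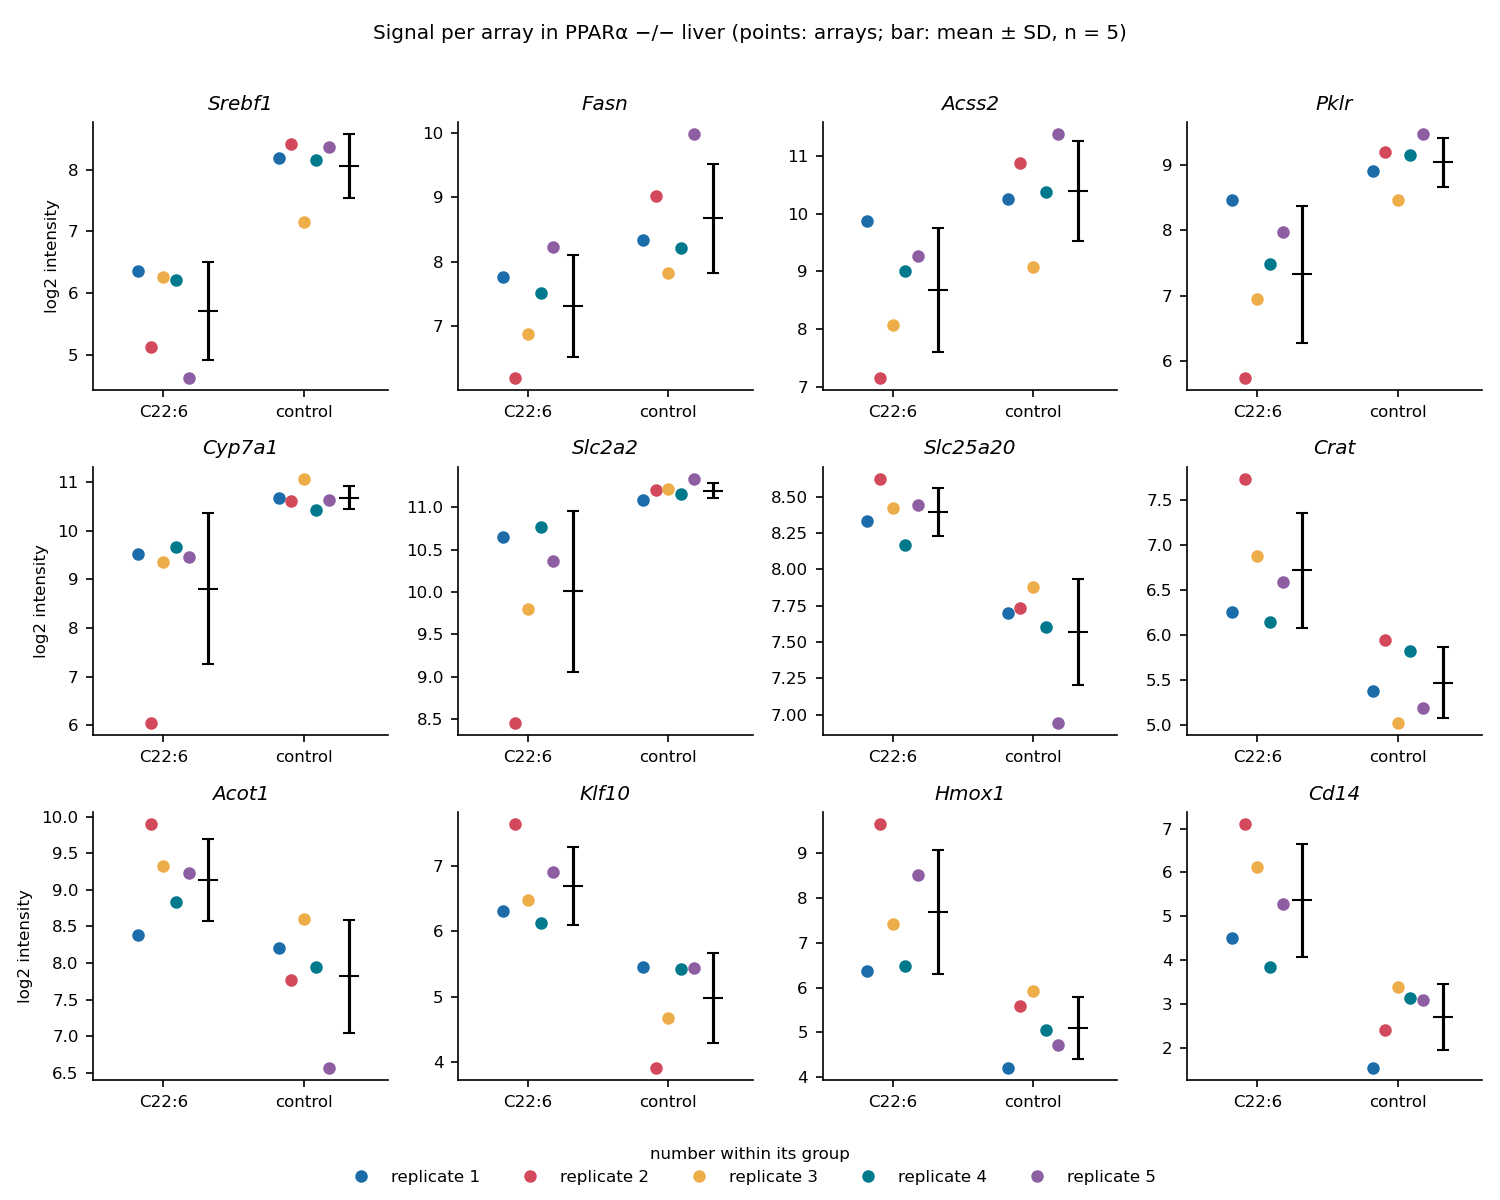
Points are the log2 intensities of single PPARα −/− mice for 12 genes, C22:6 mice on the left and control mice on the right of each panel, coloured by replicate number, with the mean ± SD (n = 5). For Srebf1, Cyp7a1, Slc2a2, Slc25a20, Crat, Klf10, Hmox1 and Cd14 the groups do not overlap, and C22:6 replicate 2 is the outermost C22:6 mouse in 11 of the 12 panels, Srebf1 being the exception.

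Some genes of fatty acid oxidation rose although PPARα was absent. Of 31 measured targets of PPARs 9 rose and 1 fell, with a median of 0.44. With C18:1 against the same control mice 6 of them were higher and 0 lower, with a median of 0.28. With C20:5 1 was higher and 0 lower. The shares over all genes for C18:1 and C20:5 against control were not counted. Between C22:6 and C18:1 0 of them differed, but only 0.289% of all probesets did, so this 0 says little about these genes. Slc25a20, the carrier that brings acylcarnitines into mitochondria, had a log2 signal of 8.33, 8.62, 8.42, 8.17 and 8.44 in the C22:6 mice, against 7.70, 7.73, 7.88, 7.60 and 6.94 in the control mice. The groups did not overlap, and the difference of 0.82 ± 0.13 (1.77-fold, adjusted p = 9.1e-05) was called in every fit of the 83 arrays that left out 1 mouse of these groups. It was 0.77 without C22:6 replicate 2 (adjusted p = 0.0013).

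Crat, which makes acetylcarnitine, behaved in the same manner, at 6.25, 7.73, 6.88, 6.14 and 6.59 in the C22:6 mice, against 5.38, 5.94, 5.02, 5.82 and 5.19 in the control mice (1.25 ± 0.27, adjusted p = 0.0022). Eci2, an isomerase needed for the oxidation of unsaturated fatty acids, was at 9.44, 10.13, 9.61, 9.74 and 9.63 in the C22:6 mice, against 9.08, 8.93, 9.40, 8.92 and 8.74 in the control mice (0.69 ± 0.11, adjusted p = 0.00013). Slc22a5, the plasma membrane carnitine transporter, which is outside the lists of oxidation genes, rose by 1.38 ± 0.26 (adjusted p = 0.00068), again without overlap. The dehydrogenase Acadl rose by 0.65 and the carnitine palmitoyltransferase Cpt1a by 0.44. All 6 were also called without C22:6 replicate 2, Cpt1a only just (adjusted p = 0.049). Acot1, which splits acyl-CoA into free fatty acid and CoA in the cytosol, rose by 1.32 ± 0.33 (adjusted p = 0.0054, and 0.049 without C22:6 replicate 2). With C18:1 against control, Acot1 was higher by 1.76 (adjusted p = 0.0017) and Acadl by 0.66 (adjusted p = 0.0028), so these rises were not particular to C22:6.

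Most of the oxidation machinery was not called. Of 21 mitochondrial genes 3 rose and 3 fell, and of 31 peroxisomal genes 3 rose (Crat, Eci2 and Ech1) and 5 fell, among these the import receptor Pex5 (−0.47, adjusted p = 0.0021) and the reductase Pecr (−0.57). Over all genes 6.05% rose and 9.1% fell. The classical targets Ehhadh (−0.33), Acot3 (−0.12) and Acadm (−0.10) were not called, and Cyp4a14 lay at or under a log2 signal of 2.72 in all 10 mice. Signals under 4.28, the 5th percentile of all log2 signals, were taken as low, and no fold is given where both group means were below it.

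Lipid droplet coat proteins were among the PPAR targets that rose. Of 11 measured genes of lipid droplets and lipolysis 4 rose with C22:6, and 3 were higher with C18:1 than in control mice. Between C22:6 and C18:1 0 of them differed, against 0.289% of all probesets, so this 0 says little as well. Plin2 had a log2 signal of 11.11, 12.34, 11.76, 11.25 and 11.95 in the C22:6 mice, against 11.03, 11.03, 10.92, 10.72 and 10.28 in the control mice, so that the groups only just did not overlap (0.89 ± 0.22, adjusted p = 0.0049, and 0.054 without C22:6 replicate 2). Plin5 was at least 2.87-fold higher, with overlap and a low control mean (adjusted p = 0.0059, and 0.059 without C22:6 replicate 2). Hilpda, an inhibitor of lipolysis, and Cidec, which enlarges droplets, rose as well, but both of their group means were low. Cidec was at 2.79, 6.79, 4.90, 2.76 and 4.10 in the C22:6 mice, against 2.53, 2.32, 2.54, 2.43 and 2.27 in the control mice, and only 2 of the C22:6 mice were above the low-signal limit. Fabp4, the adipocyte and macrophage fatty acid-binding protein, rose by 1.26 (adjusted p = 0.015, and 0.17 without C22:6 replicate 2), and Lpin2, a phosphatidate phosphatase, by 0.66 (adjusted p = 0.029, and 0.1 without C22:6 replicate 2). The fatty acid transporter Cd36 was not called (0.56, adjusted p = 0.18).

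Heme oxygenase-1, Hmox1, an enzyme induced by oxidants and heme, had a log2 signal of 6.38, 9.65, 7.41, 6.49 and 8.52 in the C22:6 mice, against 4.20, 5.60, 5.92, 5.06 and 4.71 in the control mice. All C22:6 mice were above all control mice, and replicates 2 and 5 were the highest. The change was 2.59 ± 0.57 (6.03-fold, adjusted p = 0.0021, and 2.10 with an adjusted p of 0.033 without C22:6 replicate 2). Of 36 genes of the antioxidant response 3 rose and 2 fell, near the 6.05% and 9.1% of all genes. The other rises were Osgin1 (1.20 ± 0.38) and the sulfiredoxin Srxn1 (0.76 ± 0.21), and the falls were the glutathione transferases Gsta3 (−0.39) and Gsta4 (−0.64). These 4 were not called without C22:6 replicate 2, with adjusted p values of 0.22, 0.057, 0.26 and 0.36. The other 31 were not called, and the median of the list was −0.06.

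Of 29 genes of the endoplasmic reticulum and integrated stress response 6 rose and 0 fell. Without C22:6 replicate 2 3 rose, and with array weights 2 did. Ddit3, encoding the transcription factor CHOP, had a log2 signal of 4.59, 7.50, 5.58, 5.08 and 6.48 in the C22:6 mice, against 4.58, 4.36, 4.81, 4.69 and 4.53 in the control mice. C22:6 replicates 2 and 5 were high and replicate 1 was within the range of the control mice (1.25 ± 0.29, adjusted p = 0.0035, and 0.069 without replicate 2). The kinase gene Eif2ak3, encoding PERK, had its highest value, 8.23, in C22:6 replicate 5 (1.00 ± 0.26, adjusted p = 0.0081). Atf3, a stress-induced transcription factor, was at 2.11, 4.84, 4.18, 2.86 and 6.67 in the C22:6 mice, against 1.44, 2.15, 2.21, 1.91 and 2.23 in the control mice, where it was low throughout (adjusted p = 0.00028). Its mean in the C22:6 mice was under the low-signal limit as well. The glutathione-degrading enzyme Chac1 rose by 1.28 ± 0.39 (adjusted p = 0.019, and 0.21 without C22:6 replicate 2), with 8.05 and 7.14 in replicates 2 and 5 and 4.61 to 5.75 in the other C22:6 mice, against 3.98 to 5.48 in the control mice.

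Atf3 and Chac1 are targets of ATF4, which binds elements of the form TGATGNAAN. Their promoters are shown with this form, or its reverse complement, in capitals, and with CCAAT in capitals in Chac1. The stretches are chr1:191183334-191183458 on the minus strand for Atf3, ending at the base before the annotated start, and chr2:119350992-119351116 on the plus strand for Chac1, starting 250 bases before it.
Atf3: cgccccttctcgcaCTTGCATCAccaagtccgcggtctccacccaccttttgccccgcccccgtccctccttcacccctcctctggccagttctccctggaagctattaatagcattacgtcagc
Chac1: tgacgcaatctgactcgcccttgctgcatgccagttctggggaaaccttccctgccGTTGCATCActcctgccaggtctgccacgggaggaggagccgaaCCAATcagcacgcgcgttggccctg
The form was found on either strand in 2 of the 5 called genes of this list with a promoter entry, in 4 of 26 measured ones and in 3.51% of 27025 promoters.

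Of 29 genes that respond early to growth factors and stress 5 rose, 0 fell and 24 were not called, and 3 rose without C22:6 replicate 2. Klf10, a target of TGF-β, had a log2 signal of 6.31, 7.63, 6.48, 6.13 and 6.90 in the C22:6 mice, against 5.45, 3.91, 4.67, 5.43 and 5.44 in the control mice. The groups did not overlap (1.71 ± 0.32, 3.27-fold, adjusted p = 0.00069, and 0.013 without C22:6 replicate 2). Skil, which restrains SMAD proteins and is not in the list, rose without overlap (1.36 ± 0.30, adjusted p = 0.0023). Klf6 rose by at least 4.33-fold (adjusted p = 0.0032), the control mean being replaced by the low-signal limit, and it overlapped only through control replicate 3, at 6.27. Chka, choline kinase, which is not in the list, was at 4.43, 8.36, 6.52, 5.57 and 8.14 in the C22:6 mice, against 4.22, 3.77, 3.88, 4.19 and 4.71 in the control mice (at least 5.02-fold higher, adjusted p = 0.0014).

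Cd14, the co-receptor for lipopolysaccharide, was at 4.50, 7.10, 6.12, 3.84 and 5.28 in the C22:6 mice, against 1.54, 2.41, 3.40, 3.14 and 3.09 in the control mice. The groups did not overlap. Since the control mice were low, it was at least 2.13-fold higher (adjusted p = 0.0016, and 0.025 without C22:6 replicate 2). Cd14 is made by macrophages and, under stimulation, by hepatocytes, and the macrophage markers of these livers differed as well. Of 19 measured markers of Kupffer cells and macrophages 12 rose and 0 fell, with a median of 1.12. Their mean log2 signal was 7.75, 7.62, 8.24, 8.04 and 7.25 in the C22:6 mice, against 4.96, 7.04, 7.57, 6.43 and 7.28 in the control mice.

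Control replicate 1 was far below every other mouse in this list. Without it only 1 of the 19 markers, Cd14, was called, whereas without C22:6 replicate 2 there were 10. C1qa, a complement subunit made by macrophages, was at 8.74, 8.34, 9.06, 8.82 and 8.10 in the C22:6 mice, against 4.95, 7.86, 8.49, 7.27 and 8.01 in the control mice (adjusted p = 0.0074, and 0.11 without control replicate 1). The Kupffer cell markers Vsig4 and Clec4f were likewise lowest in control replicate 1, at 5.14 and 6.49. Adgre1, encoding F4/80, was not called (0.81, adjusted p = 0.11). In whole liver, more cells of a type and more RNA per cell cannot be told apart, and the part of these cells in the other changes was not tested. Srebf1, Slc2a2 and Slc25a20 were called without control replicate 1, with adjusted p values of 0.00051, 0.0039 and 0.00026. In that fit 23 of 92 named genes lost their call, and the median of the macrophage list was still 0.68. It therefore does not separate the macrophage markers from the other changes. The plot of list means by mouse shows both lists side by side.

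**Figure D4:**
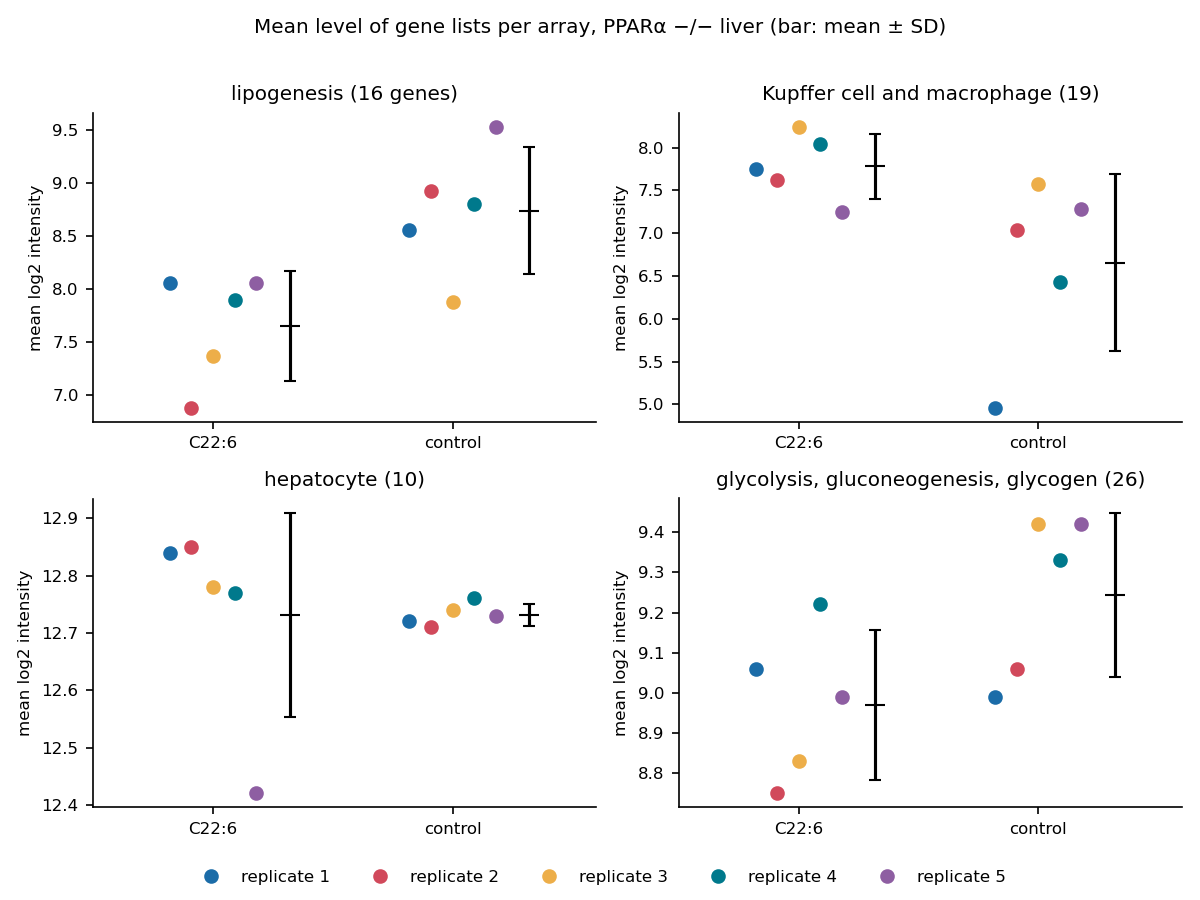
Each point is the mean log2 intensity of a gene list in 1 PPARα −/− mouse, C22:6 mice on the left and control mice on the right of each panel, coloured by replicate number, with the mean ± SD (n = 5). The macrophage list is lowest in control replicate 1 (4.96), the lipogenic list is lowest in C22:6 replicate 2 (6.88), the glucose list is lowest in C22:6 replicate 2 as well, and the hepatocyte list lies between 12.42 and 12.85 in all mice.

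Of other cell types, the granulocyte genes S100a8 and S100a9 averaged 6.69, 6.71, 5.64, 3.31 and 3.85 in the C22:6 mice, against 2.14, 2.83, 6.91, 2.34 and 3.13 in the control mice, and neither was called. Of 11 markers of sinusoidal endothelium 2 rose, Lyve1 and Vwf, and 2 fell, Clec4g and Dpp4, but 0 were called without C22:6 replicate 2 and 0 without control replicate 1. Of 11 markers of stellate cells and fibroblasts 0 were called. The adipocyte and pancreatic markers Car3 (−0.63, adjusted p = 0.0039) and Cela1 (−0.74, adjusted p = 0.036), the only 2 measured, and the erythrocyte marker Alas2 (−0.64, adjusted p = 0.0062), the only 1 measured, fell. Their adjusted p values without C22:6 replicate 2 were 0.062, 0.3 and 0.06. Control replicate 3 was high in Lyve1, at 7.58, against 3.15 to 3.96 in the other control mice. Among the acute phase proteins, 3 of 28 rose, namely Cd14, Lbp (0.91) and Il1rn, against 6.05% of all genes.

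The remaining genes among the 15 largest rises and falls without overlap, ranked by the fitted change also where a group was low, had various functions. Calml4, a calmodulin-like protein, was at 5.69, 5.16, 7.98, 5.80 and 5.82 in the C22:6 mice, against 3.62, 4.95, 4.15, 4.17 and 3.42 in the control mice. It was at least 3.52-fold higher (adjusted p = 0.0005, and 0.0011 without C22:6 replicate 2). The unnamed transcript 2010003K11Rik was at 7.91, 8.76, 7.93, 7.61 and 9.73 in the C22:6 mice, against 7.01, 6.81, 6.57, 6.15 and 5.99 in the control mice (1.88 ± 0.36, 3.69-fold, adjusted p = 0.00074). Ctla2b rose by 1.33 and Rab30, a small GTPase of the Golgi, was at least 1.18-fold higher.

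Other rises came largely from single mice. Slpi, a secreted protease inhibitor, was at 8.39 and 6.22 in C22:6 replicates 2 and 3 and at 3.02 to 3.84 in the other C22:6 mice, against 2.31 to 2.78 in the control mice. Thbd (thrombomodulin), Bmper and Ier3 had 8.02, 7.16 and 5.85 in C22:6 replicate 2 and at most 4.93, 4.39 and 3.49 in the other C22:6 mice. Of the 15 rises, 12 had their highest value in C22:6 replicate 2, and 11 were still called without it. The 4 that were not were Thbd, Bmper, Ier3 and Cidec.

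Among the falls, Dclk3, a kinase, was at 5.09, 2.98, 3.24, 3.91 and 3.21 in the C22:6 mice, against 6.67, 5.59, 5.73, 5.97 and 5.60 in the control mice (at least 3.11-fold lower, adjusted p = 0.00035). Kcnk5, a potassium channel, fell by 1.94 ± 0.47, Gas1, a membrane protein of growth arrest, by 1.73 ± 0.36, and Cited2, a coactivator, by 1.51 ± 0.32. Cited2 had 6.01, 4.91, 6.26, 6.59 and 5.80 in the C22:6 mice, against 7.35, 7.21, 7.40, 7.47 and 7.69 in the control mice. The apolipoprotein gene Apol7a fell by 1.58, the histone deacetylase gene Hdac11 by 1.36 and Nr3c2, the mineralocorticoid receptor, by 1.20. Of the 15 falls, 11 had their lowest value in C22:6 replicate 2 and 10 were still called without it. Of the 30 rises and falls together, 29 were called without control replicate 1, but 6 were called without both mice: Srebf1, Dclk3, Klf10, 2010003K11Rik, Calml4 and Slpi.

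The clock output genes Hlf and Tef, a pair of PAR bZIP factors, fell by 0.89 and 0.61 without overlap (adjusted p = 0.0024 and 0.027). Without C22:6 replicate 2 the adjusted p was 0.022 for Hlf and 0.12 for Tef, whose call was also lost without control replicate 1 (0.061). The other 13 of 15 clock genes were not called. Several lists held few or no called genes. They were the interferon-induced genes (0 of 33), the genes of the respiratory chain and mitochondrial ribosome (2 of 41, both lower), those of RNA processing and ribosome synthesis (2 of 44, both higher, and 0 without C22:6 replicate 2), the lipoproteins (1 of 20) and the proteasome and ubiquitin genes (1 higher and 1 lower of 26).

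Whether the response differed from that of WT mice was tested as the difference between the changes in the 2 genotypes, which also differ in substrain. It was lower in PPARα −/− livers for 208 probesets (1.82%) and higher for 81 (0.71%), 289 in all (2.53%). Without WT control replicate 2 these counts were 62 and 6, and without C22:6 replicate 2 of the PPARα −/− mice 121 and 26. Acot3 was at 6.40, 4.56, 4.99, 6.84 and 3.16 with C22:6, against 6.22, 4.69, 4.81, 7.0 and 3.82 in control PPARα −/− mice. In WT mice it was at 10.97, 10.62, 9.62, 10.73 and 10.25 with C22:6, against 6.61, 2.08 and 4.76 in control mice. The PPARα −/− groups overlapped almost fully and the WT groups not at all, so that the change was smaller by 6.07 ± 1.07 in PPARα −/− livers (adjusted p = 0.00021). Without WT control replicate 2 the difference was −4.87 (adjusted p = 0.015).

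Ehhadh, a bifunctional enzyme of peroxisomal oxidation, differed by −2.09 ± 0.32 (adjusted p = 2.5e-05), with changes of −0.33 in PPARα −/− and 1.76 in WT livers. Pdk4, which blocks the entry of pyruvate into oxidation, differed by −3.49 ± 0.91 (adjusted p = 0.02), with 9.03 in C22:6 replicate 2 and 5.71 to 7.07 in the other C22:6 mice, against 5.59 to 6.73 in control PPARα −/− mice. Of the 31 PPAR targets 8 differed, all lower in PPARα −/− livers, and so did 11 of 31 peroxisomal genes, against 2.04% of all genes. Others with large differences were Cyp4a14 (−2.52), the nicotinamide riboside kinase Nmrk1 (−2.51), Paqr7 (−2.46), the phosphatidylcholine transfer protein Pctp (−2.39), Akr1c19 (−2.36) and the alkaline phosphatase Alpl (−2.35). Cyp4a14 was under the low-signal limit in all PPARα −/− mice, and Paqr7 (2.61 to 3.93) in all PPARα −/− mice given C22:6. Their differences are therefore no measure of size.

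The differences in the other direction also rested on few mice. Fst (follistatin, 3.17), Btg2 (3.05), Slc41a2 (2.96), the acute phase protein Orm2 (2.74), Dnajc12 (2.64), Klf6 (2.64), Chac1 (2.52) and Slpi (2.21) were the 8 largest. Fst was at 2.98, 6.37, 3.46, 3.18 and 7.99 in the C22:6 mice, against 2.69, 2.60, 3.61, 3.57 and 2.93 in the control PPARα −/− mice. In WT mice it was at 2.20 to 2.43 with C22:6, against 3.07, 5.73 and 2.41 in control mice. Most of these values were under the low-signal limit, so the difference for Fst is no measure of size. WT control replicate 2 was the highest of the 3 by a clear margin in each of these but Klf6 and Slpi, and without it 0 of the 8 were called, against 5 of the 8 largest differences in the other direction.

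**Figure D5:**
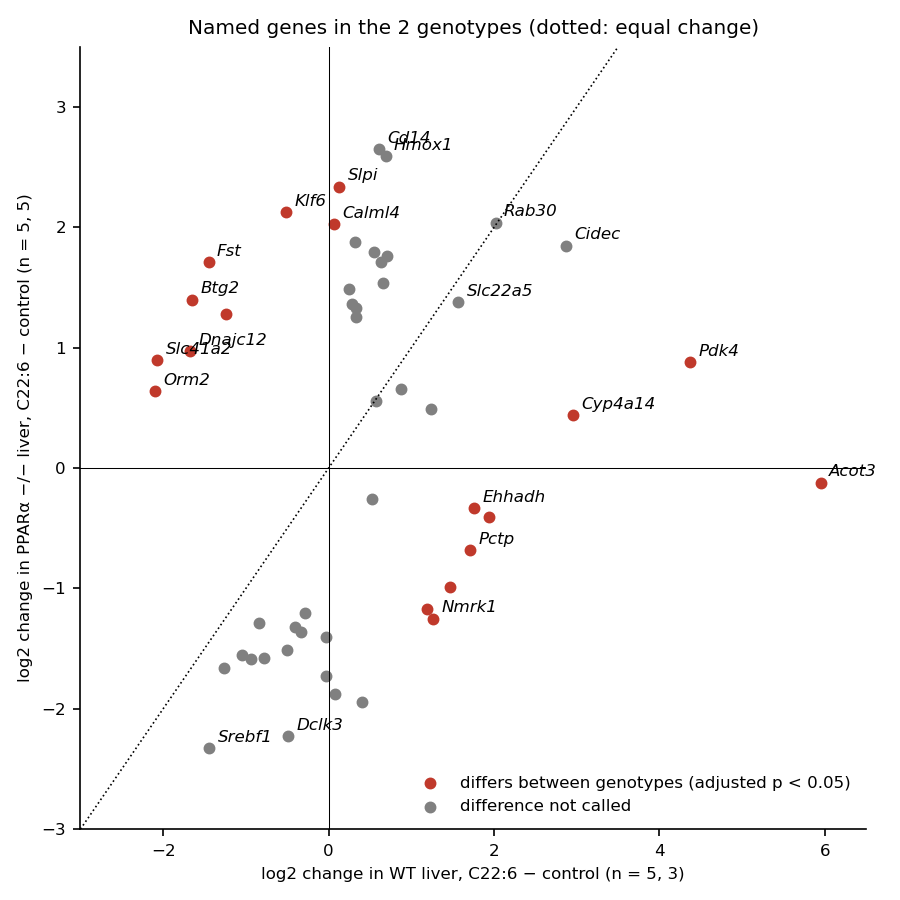
Each point is 1 of 51 named genes, placed by its log2 change with C22:6 against control in WT livers (horizontal axis) and in PPARα −/− livers (vertical axis), red where the difference between the changes had an adjusted p under 0.05. Acot3 lies far to the right, at 5.95 in WT and −0.12 in PPARα −/− livers, whereas Slc22a5 (1.57 and 1.38) lies near the dotted line of equal change. Changes are plotted as fitted, also for genes such as Rab30, Cd14, Slpi and Cyp4a14 whose signal was low in a group, for which they are no measure of size.

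Some changes were called in both genotypes. Of the 1547 probesets called in PPARα −/− livers and the 605 in WT livers, 110 were in both lists, 88 with the same sign and 22 with opposite signs. They were 7.11% of the PPARα −/− calls, against 5.3% of all probesets called in WT livers. They were 18.2% of the WT calls, against 13.6% of all probesets called in PPARα −/− livers. The number shared is to be read against these shares. Of the 79 and 140 genes that rose and fell without overlap in PPARα −/− livers, 18 were called in both genotypes. These 18 genes included Srebf1 (−2.33 in PPARα −/− and −1.44 in WT livers), Slc25a20 (0.82 and 0.74), Crat (1.25 and 1.66), and Slc22a5 (1.38 and 1.57), with adjusted p values for the difference between genotypes of 0.44 for Srebf1 and 0.86 for Slc22a5. Rab30 was among them too, but with a mean of 4.52 with C22:6, against 2.48 in control PPARα −/− mice, below the low-signal limit, and of 8.86 with C22:6, against 6.84 in control WT mice. Acot1 was called in both as well, with 1.32 in PPARα −/− and 2.68 in WT livers.

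The response to C22:6 was set against those to C20:5 and C18:1 in PPARα −/− mice at the same volume and time. These 2 comparisons do not involve the control mice. Against C20:5, a shorter n-3 fatty acid with fewer double bonds, 106 probesets were higher (0.929%) and 148 lower (1.3%), 254 in all (2.23%). Against C18:1, a fatty acid with a single double bond, 15 were higher (0.131%) and 18 lower (0.158%), 33 in all (0.289%). Adjusted over both pairs together the counts were 148 and 65 probesets. Adjusted separately, 1 and 6 probesets were called without C22:6 replicate 2, and in fits restricted to the pair of groups 0 probesets were called in either, with 265 and 107 at an unadjusted p under 0.01 (1112 and 739 under 0.05) by limma.

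The lipogenic genes Acss2 and Pklr were lower with C22:6 than with C20:5. Acss2 was at 9.88, 7.15, 8.07, 9.0 and 9.27 with C22:6, against 10.39, 10.18, 9.91 and 10.18 with C20:5 (−1.49 ± 0.41, adjusted p = 0.04). The groups did not overlap, the highest C22:6 mouse lying just below the lowest C20:5 mouse, but the call was lost without C22:6 replicate 2 (adjusted p = 0.26). With C18:1 Acss2 was at 8.64, 8.94, 8.76, 8.74 and 8.75, and the difference of C22:6 from C18:1 was −0.09 with a 95% interval of −0.87 to 0.69. Srebf1 was at 6.36, 5.13, 6.27, 6.22 and 4.63 with C22:6, at 6.61, 7.02, 6.37 and 6.76 with C20:5 and at 6.66, 6.65, 6.02, 5.52 and 5.08 with C18:1. Neither difference was called (C22:6 minus C20:5 −0.97, 95% interval −1.76 to −0.18, adjusted p = 0.16, and C22:6 minus C18:1 −0.26, −1.01 to 0.48).

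Hmox1 was higher with C22:6, at 6.38, 9.65, 7.41, 6.49 and 8.52, than with C20:5, at 5.43, 5.99, 4.67 and 5.12, without overlap (2.39 ± 0.60, adjusted p = 0.027, and 0.21 without C22:6 replicate 2). Against C18:1, where it reached 7.76 in 1 mouse, the difference of 1.57 (95% interval 0.44 to 2.69) was not called. Chka (2.36), Pdk4 (2.26), Fst (2.17) and Slpi (2.02) were the other large differences from C20:5 upwards, and Cyp2d12 (−2.19), Pklr (−1.59), Mup10 (−1.40) and Gas1 (−1.36) downwards. None of the 10 named differences from C20:5 was called without C22:6 replicate 2.

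The keratin gene Krt8 differed from C18:1 with or without that mouse, at 9.46, 9.88, 10.74, 9.48 and 11.43 with C22:6, against 8.99, 8.81, 9.18, 9.42 and 9.30 with C18:1 (1.06 ± 0.20, adjusted p = 0.0047, and 0.0058 without C22:6 replicate 2). All C22:6 mice were above all C18:1 mice, and C22:6 replicate 5 was the highest. The control mice, at 9.40 to 10.08, overlapped the C22:6 mice. The tubulin gene Tubb6 was the other such gene (1.87 ± 0.39, adjusted p = 0.012, and 0.048 without replicate 2), with 8.19 in C22:6 replicate 5. Suds3 (−0.59), Rnf19b (−0.69), Naa60 (−0.56), Lsm12 (−0.55) and Scamp1 (−0.49) were lower with C22:6 than with C18:1, but 0 of these 5 were called without C22:6 replicate 2. Suds3 was at 7.13 to 7.62 with C22:6, against 7.81 to 8.39 with C18:1.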

How the data were processed

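Liver RNA of PPARα −/− and WT mice was measured on Affymetrix mouse whole-genome arrays, 1 array per mouse. The deposited values are probeset intensities that the authors made with GC-RMA (GCRMA 2.20, per the submitters' processing notes), after which they removed probesets of low variation. They are on a linear scale, so log2 was taken. Of 11463 probesets, 51 control probesets were left out, and 10279 of the remaining 11412 carry 1 gene symbol, 406 several and 727 none. A gene has the value of its probeset of highest mean signal.

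The members and the gene lists were chosen with earlier results of these data known. The tests are those of limma without an intensity trend, on 1 mean per group of 83 arrays (all but C10:0), adjusted by Benjamini-Hochberg over all probesets. Groups follow the titles. The labels say only that the mice are separate, and the number of arrays limits the precision. Named are the 15 largest rises and falls at an adjusted p under 0.05 without overlap between groups, the 4 largest changes per list, the 8 largest differences each way between genotypes, the 5 each way between triglycerides, Ppara and genes that the paper names. Genes of a list given beside these were chosen after their values were seen. A fold against a low group mean (log2 under 4.28, the 5th percentile) is a bound that puts this limit in its place.

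The fit was tested on simulated data for C22:6 against control in PPARα −/− liver (11412 probesets), where it recovered 86% of changes of 1 and 99% of changes of 2 on the log2 scale. The simulated noise was normal, with the same spread in every group and no outlying mouse. The fit of only the 10 arrays recovered 78% and 97% there, but called 0 probesets in the real data. The simulation therefore checks the computation and not the reliability of these calls. Alternatives were other sets of arrays, array weights, an intensity trend, a replicate block, other filters, median centring, quantile normalization, a pseudocount of 16 and leaving out each mouse. The software was R 4.3.3, limma 3.58.1, Python 3.11.15 and matplotlib 3.10.9. Promoter sequences came from RefSeq (GRCm38.p6), 1 start per gene, the first listed.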

Additional observations from a re-analysis of the deposited data

Results flagged for a closer look

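Of 178 groups of 5 mice checked, for a named gene or a list mean, 16 held a mouse far from the other 4. Chance gives about 1 in 20 for independent checks. These checks share the same 10 mice and genes partly named for their values in them, so that rate is no yardstick here. C22:6 replicate 2 was such a mouse in 3 of them, with log2 signals of 6.04 for Cyp7a1 (9.35 to 9.67 in the others), 3.40 for Nr3c2 (4.82 to 5.15) and 2.61 for Paqr7 (3.60 to 3.93). C22:6 replicate 3 stood out in Calml4, at 7.98 (5.16 to 5.82). C22:6 replicate 5 stood out in the means of hepatocyte markers, at 12.42 (12.77 to 12.85), of amino acid breakdown and the urea cycle, at 10.06 (10.54 to 10.72), and of nuclear receptors and coregulators, at 7.32 (7.72 to 7.88).

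Control replicate 3 was the outlying mouse for Srebf1, at 7.16 (8.15 to 8.42 in the others), Txnip, at 8.86 (7.76 to 7.99), and Bmper, at 1.92 (2.10 to 2.15). It was so too for the means of neutrophil and monocyte markers, at 6.91 (2.14 to 3.13), ketone body synthesis, at 9.74 (9.34 to 9.43), the endoplasmic reticulum and integrated stress response, at 8.11 (7.91 to 7.96), and adipocyte and pancreatic markers, at 9.84 (10.60 to 10.91). Control replicate 2 stood out in Alpl, at 4.18 (4.60 to 4.76), and control replicate 1 in Cyp4a14, at 2.26 (1.86 to 1.94).

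For 18 of 51 named genes the change with C22:6 differed between the genotypes by limma's test of that difference. The 8 largest differences each way had been named by this same test, so this count was mostly fixed beforehand. Over all 11412 probesets the test called 289 (2.53%). The change was lower in PPARα −/− than in WT livers for Acot3 (−6.07), Pdk4 (−3.49), Cyp4a14 (−2.52), Nmrk1 (−2.51), Paqr7 (−2.46), Pctp (−2.39), Akr1c19 (−2.36), Alpl (−2.35) and Ehhadh (−2.09). It was higher for Fst (3.17), Btg2 (3.05), Slc41a2 (2.96), Orm2 (2.74), Dnajc12 (2.64), Klf6 (2.64), Chac1 (2.52), Slpi (2.21) and Calml4 (1.96). Without WT control replicate 2, 0 of the 8 largest of these were called, against 5 of the 8 largest in the other direction. For Cyp4a14, Paqr7 and Fst the signal was low in a group, so their differences are no measure of size.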

How the results depend on the processing

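The count of 1547 called probesets for C22:6 against control in PPARα −/− livers was within 1.5 times of itself, at 1484 to 1731, with all 93 arrays, the first run only, an intensity trend, the 2 filters, median centring, a pseudocount of 16 and quantile normalization. It was 963 with array weights, 0 with only the groups compared, 2 with those groups without C22:6 replicate 2, 0 without replicate 5, and 36 with all groups but without C22:6 replicate 2 and control replicate 1. Leaving out 1 mouse gave 390 to 2045. At an unadjusted p under 0.01 (1780 probesets), the groups compared alone gave 587, those without C22:6 replicate 2 386 and without replicate 5 567, leaving out both mice 690, and leaving out 1 mouse 1017 to 2123. The 289 differences between genotypes became 17 with only the groups compared, and 68 to 532 with 1 mouse left out, the lowest without WT control replicate 2. The 254 differences from C20:5 became 0 with array weights, 0 with only the groups compared, and 1 to 691 with 1 mouse left out. The 33 from C18:1 became 12 with array weights, 14 in the first run only, 0 with only the groups compared, 57 after quantile normalization and 6 to 222 with 1 mouse left out. Of 92 named genes called, 42 kept their call without C22:6 replicate 2, 69 without control replicate 1, 10 without both and 67 with array weights. None changed sign under any alternative, which says little for genes called in these same arrays. The causes were not tested.

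The replicate numbers only name the mice: same-numbered C22:6 and control mice had correlations of their deviations of −0.18 to 0.23. With the groups compared alone, the replicate block gave 0 calls against control, 559 at an unadjusted p under 0.01, 10 between genotypes, 0 against C20:5 and 0 against C18:1. Low signals limit what can be said of genes such as Cidec, Bmper, Ier3 and Hilpda, whose group means were both below the limit.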
